A study of Homo sapiens with 39 samples.

Results

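CD53, CD37, CD9, CD63, CD81, CD82 and CD151 are 7 of the tetraspanins carried by blood cells. They were picked by name from the 18132 genes that the array measured. All 25 probe sets whose annotation gives only 1 of these symbols were read, and the brightest of a gene's probe sets on average over the 39 arrays is its main one. The gene set and its rule were written with drug differences of these data in view, CD53 for having opposite signs in different lines, so the drug differences of the 7 genes are given as a description. Which of them limma called is stated, but no p is given for them and no call is used as evidence. Levels in vehicle, which did not enter the rule, are tested between lines.

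The arrays measured mRNA in 7 human acute myeloid leukemia cell lines held for 24 h with tamibarotene (SY-1425), a synthetic agonist of retinoic acid receptor alpha, or with its solvent DMSO. The labels give tamibarotene as 100 nM added and 50 nM final. Kasumi-1 is a myeloblastic line, MV-4-11, NOMO-1 and Sig-M5 are monocytic, OCI-AML3 is myelomonocytic, OCI-M1 is erythroid and KG-1a is undifferentiated. Each line gave 3 tamibarotene arrays, and 3 vehicle arrays (2 in Kasumi-1, KG-1a and Sig-M5). All are established cell lines, each of 1 culture lineage, and nothing in the labels says that replicates are separate cultures, so errors measure the spread between these samples, which may be technical.

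Tetraspanins are small proteins that cross the membrane several times and gather integrins, immune receptors and proteases into membrane microdomains. CD53 and CD37 are largely restricted to leukocytes, where they organise adhesion and receptor signalling. CD9 and CD81 are broadly expressed and take part in cell fusion and adhesion. CD63 travels between late endosomes, granules and the plasma membrane and is used as a marker of degranulation and of extracellular vesicles. CD82 is linked to the retention of blood stem cells in the niche and to suppression of metastasis, and CD151 binds laminin-receptor integrins.

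The deposited values are log2 intensities. They ran from 1.68 to 14.43, with array medians between 5.01 and 5.17. Of a list of 9 myeloid and blast markers, between 4 (OCI-M1) and 7 (Kasumi-1 and NOMO-1) lay above the median gene of 5.62 in vehicle. MPO reached 13.87 in Sig-M5 and CD34 9.67 in KG-1a, the erythroid factor KLF1 stood at 11.32 in OCI-M1, and none of 7 stromal and endothelial markers lay above the median gene in any line. Of the monocytic lines, the monocyte marker CD14 lay below the median gene in MV-4-11 (4.07) and NOMO-1 (4.67) and above it in Sig-M5 (6.18). Markers of other lineages were not all low: the platelet integrin ITGA2B stood at 10.47 in KG-1a and 10.28 in OCI-M1, the epithelial EPCAM at 9.22 in Kasumi-1 and the B cell factor PAX5 at 8.37 to 8.95 in all lines, and their part in the results was not tested. T cell markers lay below the median gene except CD3D at 12.26 in KG-1a, whose other T cell markers included CD3E at 4.58 and LCK at 3.84. The 3' minus 5' difference of beta-actin, which is larger in degraded RNA, was 1.18 in Kasumi-1 vehicle replicate 2 and 1.89 in Sig-M5 vehicle replicate 2. It lay between -0.02 and 0.81 in the other arrays, with the 0.81 in Sig-M5 vehicle replicate 1. Where leaving out these 2 arrays, or taking the actin difference as a covariate, ended the call of a gene named below or moved its called value by over 1.5 times, that is said beside the result.

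Because CD53 had the widest drug differences of the 7 genes, its start sites are shown. The RefSeq promoter table (GRCh38.p14) lists 2 for CD53, both on the forward strand of chromosome 1, and each window runs from 250 bases before to 50 bases after the start. Capitals mark GAGGAAG or its reverse complement CTTCCTC, a sequence bound by the myeloid factor PU.1. No capitals stand in the first window, and neither window holds AGGTCA, a form of the half-site of retinoic acid receptors, on either strand. Other forms of the half-site were not searched, so their absence is not shown.
CD53 start 1, chr1:110870960-110871259: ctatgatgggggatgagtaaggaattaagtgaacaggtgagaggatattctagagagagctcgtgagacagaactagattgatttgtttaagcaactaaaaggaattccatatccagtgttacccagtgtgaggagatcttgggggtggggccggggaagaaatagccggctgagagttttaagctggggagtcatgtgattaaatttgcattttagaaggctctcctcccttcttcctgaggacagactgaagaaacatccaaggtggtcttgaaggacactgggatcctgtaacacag
CD53 start 2, chr1:110872898-110873197: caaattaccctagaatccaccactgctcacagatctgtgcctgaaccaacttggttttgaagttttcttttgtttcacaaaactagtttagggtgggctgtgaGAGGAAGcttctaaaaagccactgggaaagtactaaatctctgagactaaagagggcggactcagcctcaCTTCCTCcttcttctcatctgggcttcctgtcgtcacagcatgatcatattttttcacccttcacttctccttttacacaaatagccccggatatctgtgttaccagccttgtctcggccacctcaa
In the second window the matches begin at bases 104 and 174. GAGGAAG in either orientation was present in 13.6% of the 35116 promoters of this length in the table, and AGGTCA in 13.8%. Promoters were listed for CD53, CD63, CD82 and CD9. AGGTCA stood in 1 of the 8 windows of CD63, GAGGAAG stood in 4 of them, and the windows of CD82 and CD9 held neither. Some windows of CD63 overlap and share a match, so these counts are not of separate sites. A match is a string of letters in a window, and no binding was measured here.

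In vehicle, the 7 genes differed between the lines in level. The sharpest contrast was CD37, which stood near the bottom of the array's range in KG-1a and well above the median gene in the other 6 lines, while CD82 was highest in KG-1a. CD53, the pan-leukocyte member, had the narrowest range of the 7 on the main probe sets (1.20), though its other probe set spanned 2.86 with Sig-M5 lowest. limma's moderated F test over the 7 lines, with Benjamini-Hochberg adjustment over all genes, passed for 7 of the 7 genes, against 78.6% of all genes. Pairs of lines were compared in the same fit. Its spread is pooled over all groups, and it is the spread meant below. A pair whose arrays are apart can therefore fail to pass.

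CD37 measured 4.05 and 3.65 in the KG-1a vehicle arrays and 9.45 and 9.72 in those of Kasumi-1, a distance between means of 5.73 log2 units (F test, adjusted p = 3.35e-19). OCI-M1, next above KG-1a, stood at 7.08, 3.23 ± 0.21 (SE) higher (adjusted p = 3.16e-14). CD37 therefore separated KG-1a from every other line. From the top the order was Kasumi-1, NOMO-1 (8.97), Sig-M5 (8.52), MV-4-11 (8.28), OCI-AML3 (7.73), OCI-M1 and KG-1a, and of the adjacent lines NOMO-1 and Sig-M5 (adjusted p = 0.0702) and Sig-M5 and MV-4-11 (adjusted p = 0.372) did not differ beyond their spread. A second CD37 probe set had the same extremes, 3.73 in KG-1a and 9.21 in Kasumi-1, whereas the 2 dimmest CD37 probe sets spanned only 1.12 and 1.30 between lines.

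CD82 ran the other way at the ends of the order. It stood at 10.63 in KG-1a (arrays at 10.70 and 10.57) and at 7.64 in Kasumi-1 (7.53 and 7.75), with an F test adjusted p of 1.6e-15. KG-1a was 1.6 ± 0.16 above MV-4-11, the next line, at 9.03 (adjusted p = 7.54e-10). OCI-M1 (8.58) and NOMO-1 (8.47) did not differ beyond their spread, nor did Sig-M5 (8.01) and OCI-AML3 (7.73), or OCI-AML3 and Kasumi-1. Over the 14 group means the Pearson correlation of CD82 with CD37 was -0.84, a description over points that share lines. The KG-1a groups lay at the end of both ranges, with CD37 at 3.85 and 3.77 and CD82 at 10.63 and 10.75. The correlation was not taken without KG-1a, so it does not show an inverse relation among the other lines.

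CD9 was highest in NOMO-1 at 7.17 (arrays at 7.06, 7.33 and 7.11) and next in OCI-AML3 at 6.05 (5.86, 6.37 and 5.93), which differed by 1.11 ± 0.16 (adjusted p = 1.23e-06). MV-4-11 followed at 5.08, and MV-4-11, Sig-M5 (4.98), Kasumi-1 (4.93), OCI-M1 (4.77) and KG-1a (4.55) did not differ from the next line in the order beyond their spread (adjusted p from 0.376 to 0.85). Across that stretch MV-4-11 was 0.52 ± 0.18 above KG-1a (adjusted p = 0.024). The size of these differences depended on the probe set, and which probe set reads CD9 best was not tested. Of the 9 CD9 probe sets, 4 had vehicle means spanning more than 4 log2 units between lines, 3 spanned less than 1, and the main probe set spanned 2.62. On the widest of them CD9 was at 7.98 in NOMO-1, 6.60 in OCI-AML3 and 4.64 in MV-4-11, and between 3.24 and 3.53 in the remaining 4 lines.

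CD63 was high in NOMO-1 (12.12), MV-4-11 (11.98), OCI-M1 (11.89) and Kasumi-1 (11.84). No adjacent lines among these differed beyond the pooled spread (adjusted p from 0.0973 to 0.583). NOMO-1 did differ from OCI-M1 (adjusted p = 0.00578) and from Kasumi-1 (adjusted p = 0.00223). CD63 was lower in OCI-AML3 (11.54), and lowest in Sig-M5 (10.70) and KG-1a (10.56), where the arrays lay between 10.54 and 10.73. CD63 thus fell into an upper and a lower group of lines, with OCI-AML3 0.84 ± 0.07 above Sig-M5 (adjusted p = 4.05e-11). CD81 was highest in Kasumi-1 (11.37) and OCI-AML3 (11.32), which did not differ beyond their spread (adjusted p = 0.797), and was lowest in OCI-M1 at 9.58, 0.48 ± 0.12 below KG-1a (adjusted p = 0.000883). The F tests gave adjusted p = 3.96e-19 for CD63 and 1.1e-15 for CD81.

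CD53 stood between 9.40 in Sig-M5 and 10.60 in MV-4-11. No 2 adjacent lines from MV-4-11 down to KG-1a (9.93) differed beyond the pooled spread (adjusted p from 0.0777 to 0.851). The ends of that stretch did, with MV-4-11 0.67 ± 0.10 above KG-1a (adjusted p = 3.44e-06). Sig-M5 was 0.52 ± 0.11 below KG-1a (adjusted p = 0.000269). CD151 lay between 9.58 (OCI-M1) and 9.81 (Kasumi-1) in 6 lines, whose neighbours did not differ, and at 8.56 in Sig-M5, 1.01 ± 0.11 below OCI-M1 (adjusted p = 1.14e-09). Both genes were thus lowest in the line with the least intact vehicle RNA. With the actin difference as a covariate, 12 of the 21 pairs of lines passed for CD53 and 7 for CD151, against 14 and 6 without it.

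The number of the 21 pairs of lines with different vehicle levels was 19 for CD37, 19 for CD81, 17 for CD82, 16 for CD63, 14 for CD53, 12 for CD9 and 6 for CD151, where 43.4% of all such tests passed over all genes. CD151 differed in 12 pairs without Kasumi-1 vehicle replicate 3, which stood at 9.55 beside 10.06 in replicate 2. Its count was 11 with the mean of its 5 probe sets.

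**Figure D1:**
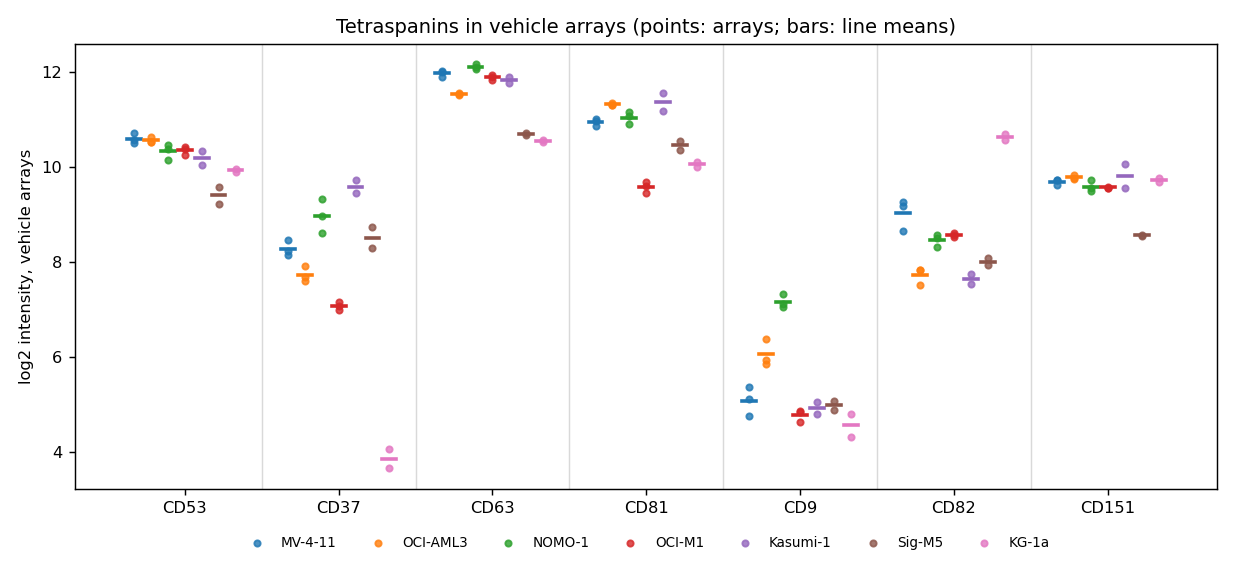
Log2 intensity (y axis) of the 7 tetraspanins (x axis) in the vehicle arrays of each line, main probe sets; points are arrays, bars are line means, and colours are lines. CD37 is at 3.85 in KG-1a and 7.08 or more elsewhere, and CD82 is highest in KG-1a at 10.63.

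After tamibarotene, CD53 went in opposite directions. It was higher in Sig-M5, OCI-AML3, NOMO-1, MV-4-11 and OCI-M1, by 0.50 to 1.40 log2 units, and fell by 1.66 in KG-1a. CD63 was higher in Sig-M5 and OCI-AML3 and lower in MV-4-11, by under 0.5 each. CD81 fell in Sig-M5, CD151 fell in Sig-M5 and OCI-AML3, and CD37, CD9 and CD82 were called in no line on their main probe sets. A gene is called where limma's p, adjusted over all genes of that line, is under 0.05. Of the 49 differences of a gene in a line, 7 were called higher and 5 lower, beside 8.14% called of all genes and lines.

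By line, and beside the percentage of all genes called there, the number of the 7 genes called was 4 in Sig-M5 (26.9%), 3 in OCI-AML3 (11.9%) and 2 in MV-4-11 (7.72%). It was 1 each in NOMO-1 (3.48%), KG-1a (3.09%) and OCI-M1 (1.09%), and 0 in Kasumi-1 (2.84%). The median difference of the 7 genes was lowest in KG-1a (-0.18) and highest in OCI-AML3 (0.19), where that of all genes was -0.02 and -0.03. Since the genes were chosen on these differences, nothing is read from the counts.

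**Figure D2:**
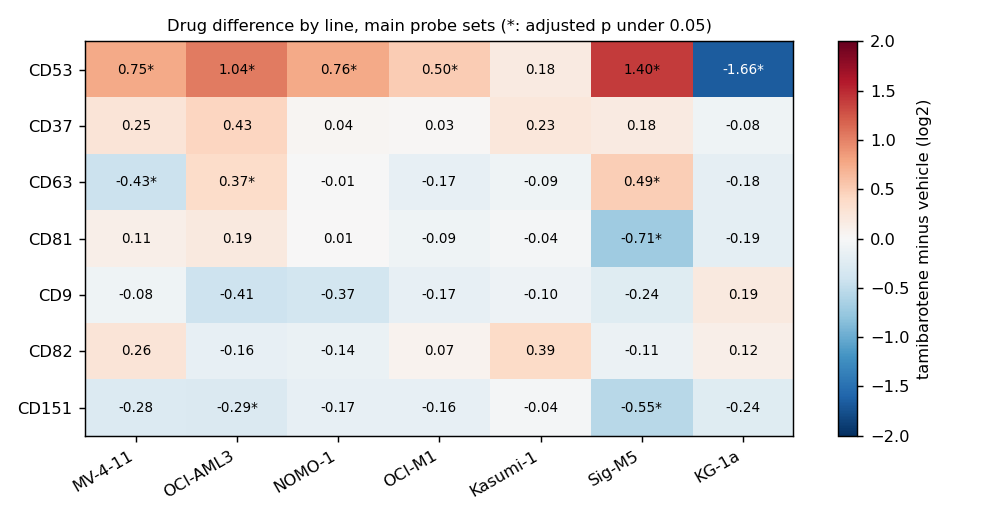
Tamibarotene minus vehicle (log2, colour and number) of the 7 tetraspanins (rows) in the 7 lines (columns), main probe sets; an asterisk marks an adjusted p under 0.05. CD53 carries the largest value of either sign, 1.40 in Sig-M5 and -1.66 in KG-1a.

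In KG-1a, CD53 measured 9.97 and 9.89 in vehicle and 8.29, 8.18 and 8.33 with tamibarotene. The arms were far apart, and CD53 fell by 1.66 ± 0.10, to 0.316 of its vehicle level. The other CD53 probe set read 9.91 and 9.89 in vehicle and 8.25, 8.17 and 8.28 with drug, a difference of -1.67 ± 0.28. The actin differences of these 5 arrays lay between 0.06 and 0.15. In bulk RNA, fewer cells with the transcript and less of it per cell cannot be told apart. In the same arrays CD38, a known retinoid target, rose by 4.5 ± 0.14 (limma adjusted p = 2.24e-20) and ITGAM, a myeloid integrin chain, by 2.25 ± 0.20 (adjusted p = 1.61e-09), while RARA itself differed by 0.19 ± 0.18 (adjusted p = 0.796).

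In OCI-AML3, CD53 measured 10.53, 10.64 and 10.52 in vehicle and 11.51, 11.61 and 11.68 with tamibarotene, and rose by 1.04 ± 0.09, or 2.06-fold. NOMO-1 read 10.46, 10.38 and 10.15 against 11.06, 11.15 and 11.05, a rise of 0.76 ± 0.09. MV-4-11 read 10.58, 10.50 and 10.72 against 11.33, 11.38 and 11.33, a rise of 0.75 ± 0.09. In each of these lines the arrays of the arms were apart, and the other CD53 probe set gave 1.08, 0.67 and 0.68.

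OCI-M1 had the smallest of the called rises, 0.50 ± 0.09, from 10.25, 10.39 and 10.43 to 10.75, 11.00 and 10.81. The other probe set gave 0.47 there. The SE of that probe set was 0.25 to 0.28, larger than that of the main one. It is pooled over all groups, among them the vehicle arrays of Sig-M5 (8.77 and 6.92) and Kasumi-1 (9.08 and 10.30). On this probe set CD53 was called in OCI-AML3, Sig-M5 and KG-1a but not in MV-4-11, NOMO-1 or OCI-M1. Its arrays were still apart in MV-4-11 (vehicle up to 10.63, treated from 11.27), NOMO-1 (10.53 and 11.08) and OCI-M1 (10.62 and 10.99). OCI-M1 was also not called when the line was fitted alone.

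Sig-M5 and Kasumi-1 are the lines in which the reading depended on the vehicle arrays. In Sig-M5, CD53 measured 9.58 and 9.23 in vehicle and 10.76, 10.87 and 10.77 with drug, a rise of 1.40 ± 0.10 or 2.63-fold. The other probe set read 8.77 and 6.92 in vehicle, in arrays with actin differences of 0.81 and 1.89, and 10.49 to 10.65 in treated arrays with 0.31 to 0.34, which made the difference 2.71. Without vehicle replicate 2 the main value was 1.22, and with the actin difference as a covariate it was 1.20, both called.

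In Kasumi-1, CD53 measured 10.04 and 10.33 in vehicle and 10.39, 10.33 and 10.37 with drug. The difference of 0.18 ± 0.10 was not called. The lower vehicle array is replicate 2, where the actin difference was 1.18 and the other probe set read 9.08, against 10.30 in vehicle replicate 3. Without it the difference was 0.03.

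**Figure D3:**
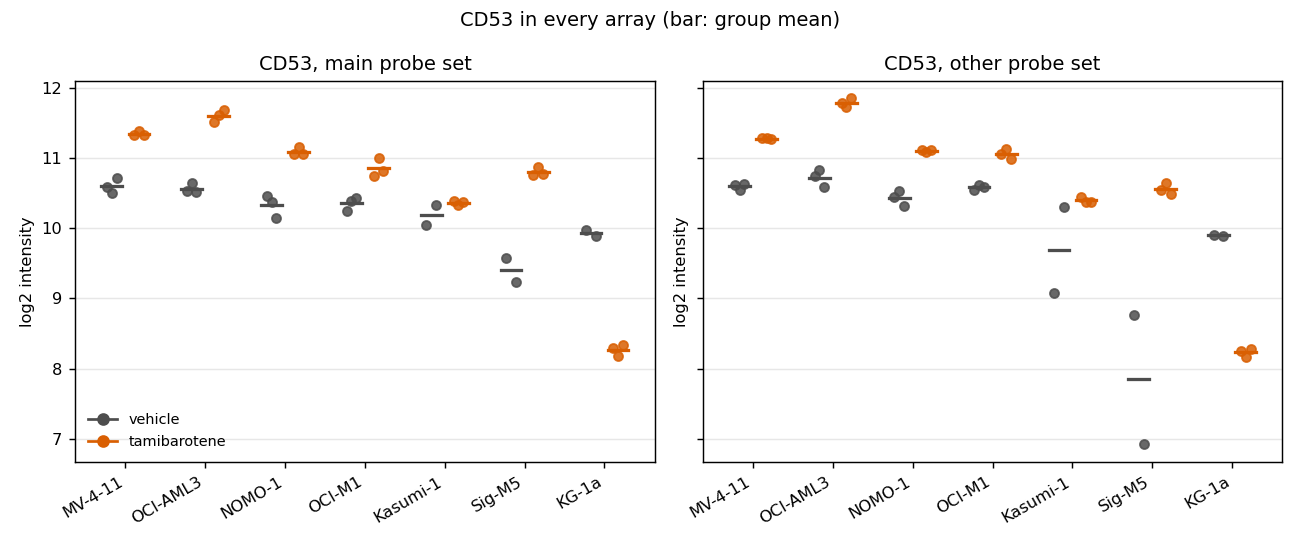
Log2 intensity of CD53 (y axis) in every array by line (x axis), on its main probe set (left) and its other probe set (right); grey points are vehicle, orange points tamibarotene, and bars are group means. The orange bar lies above the grey in each line but KG-1a, where it lies below. In Kasumi-1 on the main probe set the highest vehicle and lowest treated arrays both read 10.33. The other probe set drops to 6.92 and 9.08 in the vehicle arrays with the most degraded RNA.

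Among all genes, 3.07% were called higher in at least 1 line and lower in at least 1 other. Genes at least 2-fold higher in 1 line and 2-fold lower in another, called in both with arrays apart, were 0.127%, or 23 genes, CD53 among them by the choice that put it here.

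CD37, the other leukocyte-restricted member, was not called in any line. Its largest difference was in OCI-AML3, where vehicle arrays at 7.68, 7.92 and 7.59 lay below treated arrays at 8.16, 8.35 and 7.98 (0.43 ± 0.19). In the other 6 lines the arms overlapped, with differences between -0.08 (KG-1a) and 0.25 (MV-4-11). In KG-1a the arrays read 4.05 and 3.65 in vehicle and 4.31, 3.41 and 3.59 with drug, so CD37 stayed near the lower end of the array's range there while CD53 fell. The second CD37 probe set gave 0.55 in OCI-AML3, 0.46 in KG-1a and 0.39 in Kasumi-1 with arrays apart, where the 2 dimmest gave 0.01 to 0.09, -0.24 in both, and -0.28 to -0.24.

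CD63, the granule and vesicle member, was called in 3 lines with different signs. In MV-4-11 it fell by 0.43 ± 0.07, from 12.03, 11.91 and 12.00 to 11.51, 11.59 and 11.57. In OCI-AML3 it rose by 0.37 ± 0.07, from 11.53, 11.56 and 11.54 to 11.90, 11.90 and 11.93. The arms were apart in both lines, and after treatment these lines had exchanged their order. In Sig-M5 it rose by 0.49 ± 0.07, from 10.73 and 10.68 to 11.21, 11.10 and 11.29. The other CD63 probe set gave -0.43, 0.35 and 0.33 in the same lines. CD63 differed by -0.18 in KG-1a and -0.17 in OCI-M1, with arrays apart but no call, and by -0.09 in Kasumi-1 and -0.01 in NOMO-1.

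CD81 was called in Sig-M5, where it fell by 0.71 ± 0.12, from 10.56 and 10.36 to 9.72, 9.65 and 9.88. The fall was -0.81 without vehicle replicate 2 and -0.58 with the actin difference as a covariate. In the other lines CD81 differed by -0.19 (KG-1a) to 0.19 (OCI-AML3), and only 1 probe set represents it. Sig-M5 was thus the line in which CD53 and CD63 were higher while CD81 and CD151 were lower.

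CD151, the integrin-binding member, had lower treated means on its main probe set, with arrays apart in each line but Kasumi-1. In Sig-M5 it read 8.55 and 8.57 in vehicle and 7.99, 8.04 and 7.99 with drug (-0.55 ± 0.11, called). In OCI-AML3 it read 9.74, 9.84 and 9.77 against 9.48, 9.65 and 9.36 (-0.29 ± 0.09, called). The OCI-AML3 call was lost with any of 5 of its 6 arrays left out, and the Sig-M5 call with the actin covariate (-0.34) or with the mean of the CD151 probe sets (-0.23), whose dimmest was 0.34 higher with drug. In Kasumi-1 the direction was not settled: the main difference was -0.04, but it was 0.21 without vehicle replicate 2 and 0.07 with the actin covariate, and the 4 other probe sets gave 0.03 to 0.57.

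CD9 showed how far the probe set matters. The main probe set gave -0.41 ± 0.16 in OCI-AML3 (5.86, 6.37 and 5.93 in vehicle, 5.77, 5.55 and 5.62 with drug) and -0.37 in NOMO-1, with arrays apart and no call. The 4 CD9 probe sets with the widest range between lines gave -1.54 to -0.82 in OCI-AML3 and -0.86 to -0.44 in MV-4-11. Their vehicle means in MV-4-11 were only 3.66 to 4.72. In NOMO-1, where CD9 was highest (7.16 to 8.09 in vehicle), these probe sets gave -0.43 to -0.16. On the widest of them OCI-AML3 read 6.43, 6.97 and 6.41 in vehicle and 5.09, 5.13 and 4.96 with drug, 2.91-fold lower with the arms apart. MV-4-11 read 4.64, 4.34 and 4.95 against 3.88, 3.81 and 3.94. That probe set was chosen after its values were seen, and when it stood for CD9 the gene was called lower in OCI-AML3 (-1.54) and MV-4-11 (-0.76). With the mean of all CD9 probe sets the same lines were called, at -0.61 and -0.35. In the 4 lines where CD9 was near the bottom of these probe sets' range, they gave between -0.27 and 0.16.

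CD82 was called in no line. Its largest difference was 0.39 ± 0.16 in Kasumi-1, from 7.53 and 7.75 to 8.02, 7.87 and 8.20, where the arms were apart, and 0.28 without vehicle replicate 2. In KG-1a, where it was highest, treated arrays at 10.84, 10.70 and 10.72 stood beside vehicle arrays at 10.70 and 10.57 (0.12 ± 0.16). The other CD82 probe set gave 0.43 in Kasumi-1 and 0.12 in KG-1a.

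**Figure D4:**
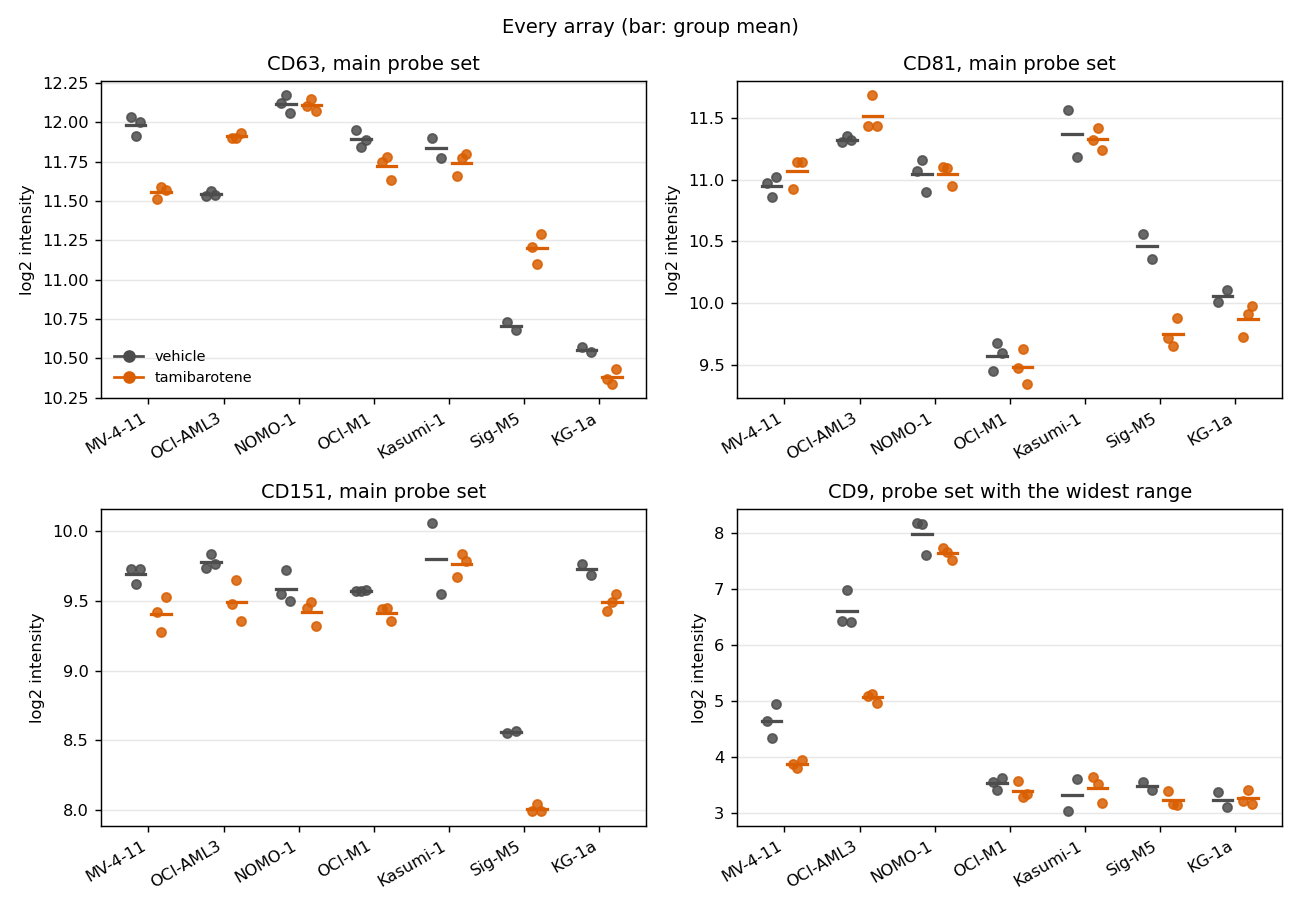
Log2 intensity (y axes) of CD63, CD81 and CD151 on their main probe sets and of CD9 on the probe set with the widest range between lines, in every array by line (x axes); grey points are vehicle, orange points tamibarotene, and bars are group means. CD63 falls in MV-4-11 and rises in OCI-AML3 and Sig-M5, CD81 falls in Sig-M5, and CD9 drops from 6.60 to about 5 in OCI-AML3.

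Array non-overlap was common over all genes: 27.6% of genes and lines had treated and vehicle arrays apart. For the 7 tetraspanins it was 26 of 49, and for CD53 7 of 7 lines, though in Kasumi-1 the nearest arrays of the arms both read 10.33. Again nothing is read from counts that the choice fixed.

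The genes whose levels followed CD53 most closely over the 14 group means were NAXD (Pearson r = 0.855), COPZ1 (0.828), REPIN1 (0.826), SLC25A35 (0.824) and TRAPPC14 (0.824). Over the 7 drug differences, among 3133 genes spanning at least 1 log2 unit, they were MZB1 (0.969), C1orf162 (0.966), LCT (0.965), CRISP2 (0.962) and ADA (0.960). These correlations describe points that share lines and arrays. Most of the second group rest on KG-1a: without it r was 0.932 for ADA, 0.875 for MZB1 and 0.739 to 0.762 for the others, and MZB1, a B cell chaperone cofactor, differed by -1.14 in KG-1a and by -0.17 to 0.05 elsewhere. ADA, the adenosine deaminase of lymphocytes, differed by -0.41 in KG-1a and by 0.67 in Sig-M5, the same signs as CD53. For the other members the closest gene over group means was ARL11 for CD37 (0.958), MOCOS for CD9 (0.985), CNOT8 for CD63 (0.964), DGKZ for CD81 (0.968), IL2RB for CD82 (0.945) and ZWINT for CD151 (0.967). These were not recomputed without a line, and some may rest on 1. In vehicle, KG-1a had the lowest ARL11 (3.45) and highest IL2RB (5.69), and Sig-M5 the lowest ZWINT (10.87).

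Of the 26 other tetraspanins of the family, 13 were called in no line, and none rose in some lines and fell in others. The clearest changes were falls of TSPAN13 in 3 lines and rises of TSPAN14 in 4. Over all genes, the percentages called up and down were 8.50% and 18.4% in Sig-M5, 5.50% and 6.36% in OCI-AML3, 4.32% and 3.40% in MV-4-11 and 2.77% and 0.711% in NOMO-1. They were 1.21% and 1.88% in KG-1a, 0.700% and 0.386% in OCI-M1 and 0.480% and 2.36% in Kasumi-1. By line, 6 of the 26 were called in Sig-M5 (3 up, 3 down; 2 of the 6 stayed called with the actin covariate and 4 without the most degraded arrays), 6 in OCI-AML3 (1 up, 5 down), 3 in KG-1a (1 up, 2 down), 2 each in MV-4-11 and NOMO-1 (1 up and 1 down each), 1 in OCI-M1 (down) and 0 in Kasumi-1. Their median difference was -0.15 in KG-1a and -0.13 in Sig-M5, against -0.02 and -0.10 for all genes, and between -0.09 and 0.05 in the other lines. The list was written with results of these data known.

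TSPAN13 fell by 1.54 ± 0.14 in MV-4-11 (limma adjusted p = 5.32e-10), by 1.31 ± 0.15 in Sig-M5 (adjusted p = 1.24e-07) and by 0.65 ± 0.14 in OCI-AML3 (adjusted p = 0.00107). In KG-1a, where its vehicle level was highest at 11.94, it differed by 0.08. TSPAN14 rose by 0.69 ± 0.10 in Sig-M5 (adjusted p = 4.87e-06), 0.63 ± 0.10 in KG-1a (adjusted p = 0.000122), 0.32 in OCI-AML3 and 0.29 in MV-4-11, and the MV-4-11 call was lost with any of 5 of its 6 arrays left out. With the actin covariate the Sig-M5 values were -0.99 for TSPAN13 and 0.88 for TSPAN14, both still called. TSPAN14 thus went up in KG-1a, where CD53 went down.

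TSPAN14 belongs to the TspanC8 tetraspanins, which escort the protease ADAM10 to the cell surface, and other TspanC8 members fell where they were called. TSPAN33 fell by 0.62 in Sig-M5 (adjusted p = 0.00219) and by 0.56 in KG-1a (adjusted p = 0.0297), TSPAN5 by 0.57 in OCI-AML3 (adjusted p = 0.00696) and TSPAN17 by 0.78 in Sig-M5 (adjusted p = 0.00175). The TSPAN5 call was lost without replicate 2 of either arm, TSPAN17 and TSPAN33 in Sig-M5 were -0.33 and -0.34 with the actin covariate and neither was called, TSPAN33 was -0.49 with no call there without the most degraded arrays, and the KG-1a call of TSPAN33 was lost with any 1 of its 5 arrays left out. TSPAN10 and TSPAN15 were called in no line. ADAM10 rose by 0.96 ± 0.23 in Sig-M5 (adjusted p = 0.00181) and was called in no other line. It was 0.59 with the actin covariate and 0.81 without the most degraded arrays, and was called under neither.

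TSPAN7 was high in Kasumi-1 (9.78) and KG-1a (9.09) and between 3.54 and 4.0 elsewhere, and fell by 0.96 ± 0.11 in KG-1a (adjusted p = 4.17e-07) and by 0.36 in OCI-AML3 (adjusted p = 0.0114). TSPAN2 fell by 1.22 ± 0.15 in NOMO-1 (adjusted p = 1.94e-06), and TSPAN31 rose by 0.43 ± 0.11 there (adjusted p = 0.0244), a call lost with any of 3 of the 6 arrays left out. TSPAN8 fell by 0.96 ± 0.18 in OCI-M1 (adjusted p = 0.0018), a call lost when the line was fitted alone. TSPAN2, TSPAN31 and TSPAN8 were thus called in 1 line each. TSPAN3, evenly expressed apart from 8.23 in Sig-M5, rose by 0.65 there (adjusted p = 2.46e-05), but by 0.28 with no call with the actin covariate. TSPAN4 fell by 0.42 in OCI-AML3 (adjusted p = 0.0453), where it was highest at 10.20, a call lost with any of 5 of the 6 arrays left out.

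**Figure D5:**
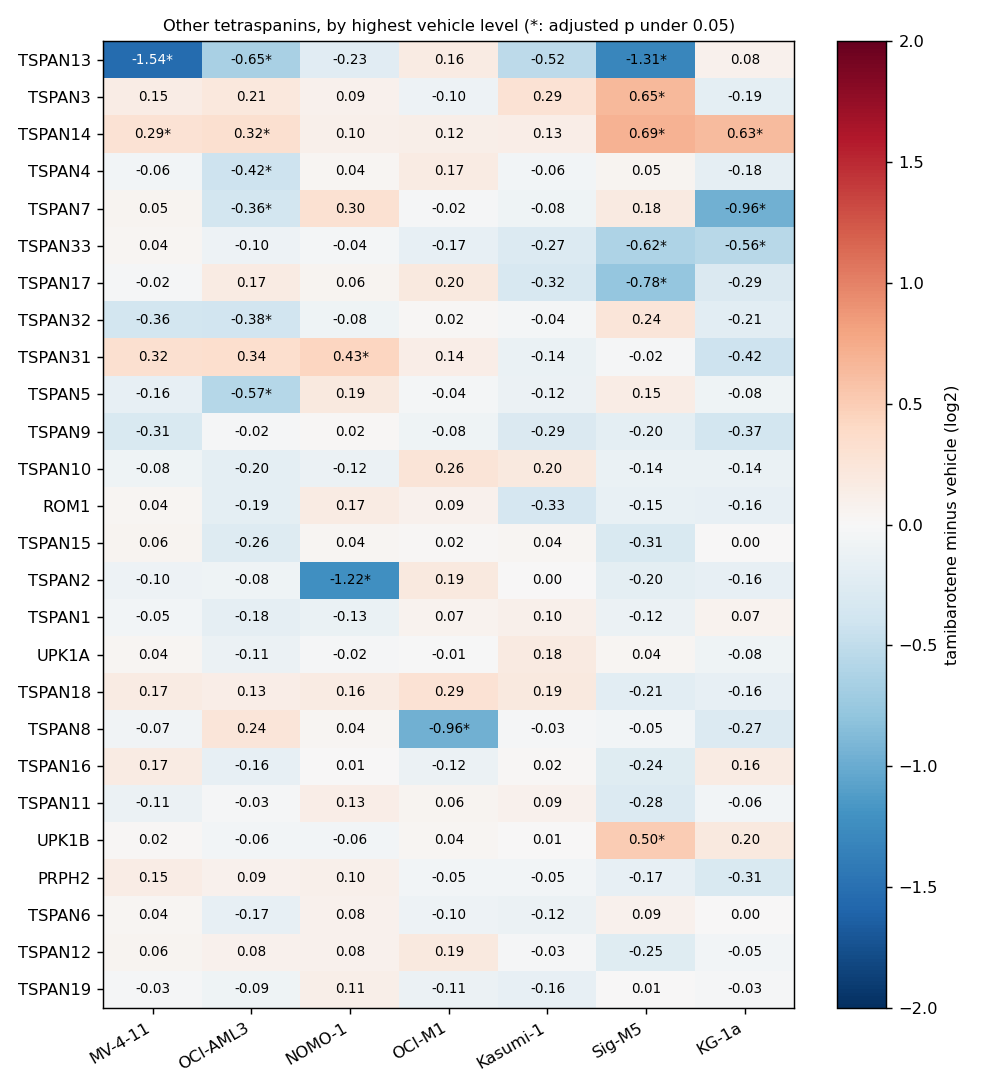
Tamibarotene minus vehicle (log2, colour and number) of the 26 other tetraspanins (rows, ordered by highest vehicle level) in the 7 lines (columns); an asterisk marks a limma adjusted p under 0.05. TSPAN13 is lower in MV-4-11, Sig-M5 and OCI-AML3, and TSPAN14 is higher in 4 lines.

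Of 44 listed proteins that tetraspanins bind or sort, 41 were analysed here. This list too was written with results of these data known, so no direction is read from its counts. The adjusted p values of its genes carry the same limit. The counts stand beside the shares of all genes called in each direction given above. Called higher and lower were 6 and 2 in MV-4-11, 5 and 1 in NOMO-1, 9 and 2 in OCI-AML3 and 12 and 7 in Sig-M5. The numbers were 1 and 3 in KG-1a, 2 and 2 in OCI-M1 and 0 and 2 in Kasumi-1. Of the 41, 16 were called in no line, and 4 (CD44, RAB27A, ITGA4 and CD36) rose in some and fell in others, although the Sig-M5 rise of RAB27A (0.44) was 0.24 and not called without the most degraded arrays. The falls of CD44, ITGA4 and CD36 also lost their calls in some fits, given below. The median difference of the 41 was between -0.06 (Kasumi-1) and 0.10 (OCI-AML3), against -0.10 to 0.02 for all genes. In Sig-M5 the count of 19 became 12 without vehicle replicate 2 and Kasumi-1 vehicle replicate 2, and 11 with the actin covariate.

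ITGA6, CD36 and HBEGF had the largest rises of the list. ITGA6, the integrin alpha 6 chain that pairs with CD151, rose by 5.47 ± 0.27 in MV-4-11 (adjusted p = 4.62e-16), 3.65 ± 0.31 in Sig-M5 (adjusted p = 1.54e-10), 2.36 ± 0.27 in OCI-AML3 (adjusted p = 9.64e-08) and 1.42 ± 0.27 in NOMO-1 (adjusted p = 0.00113). CD151 differed by -0.55 to -0.17 in the same lines, called in OCI-AML3 and Sig-M5. HBEGF, whose membrane form associates with CD9, rose by 2.86 ± 0.14 in OCI-AML3 (adjusted p = 2.69e-16), 2.79 ± 0.14 in MV-4-11 (adjusted p = 2.6e-16), 1.45 in NOMO-1 and 1.04 in Sig-M5.

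CD36, a scavenger receptor found with CD9 and CD81, rose by 3.14 ± 0.31 in Sig-M5 (adjusted p = 4.11e-09), 1.68 ± 0.27 in OCI-AML3 (adjusted p = 3.62e-05) and 1.63 ± 0.27 in NOMO-1 (adjusted p = 2e-04). In OCI-M1, where its vehicle level was highest at 8.43, it fell by 1.10 ± 0.27 (adjusted p = 0.0383), a call lost with any of 5 of the 6 arrays left out. PRKCB, a protein kinase C isoform recruited by tetraspanins including CD53, rose in 5 lines, by 0.41 in OCI-M1 to 1.77 ± 0.11 in Sig-M5 (adjusted p = 1.17e-13). Those are the 5 lines in which CD53 rose.

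In KG-1a, where CD53 fell, IGSF8, an immunoglobulin-family partner of CD9 and CD81, fell by 1.02 ± 0.17 (adjusted p = 0.00015). IGSF8 was also called lower in Sig-M5 (-0.57), where CD53 rose. There it was -0.72 with no call with the actin covariate, and -0.64 and called without the most degraded arrays. ITGA4, the integrin alpha 4 chain, fell by 0.78 ± 0.17 in KG-1a (adjusted p = 0.00498) and rose by 1.37 ± 0.17 in Sig-M5 (adjusted p = 3.34e-07) and by 0.55 in OCI-AML3. The Sig-M5 rise was 0.91, still called, with the actin covariate. The KG-1a call of ITGA4 was lost when either vehicle array was left out. ICAM1 rose by 1.03 ± 0.22 in KG-1a (adjusted p = 0.00481), a call lost without vehicle replicate 1, and by 1.56 ± 0.20 in MV-4-11 (adjusted p = 6.82e-07).

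CD44, the hyaluronan receptor, rose by 1.04 ± 0.12 in Sig-M5 (adjusted p = 4.94e-08) and fell by 0.51 ± 0.10 in OCI-M1 (adjusted p = 0.00589). It fell by 0.42 in Kasumi-1 (adjusted p = 0.0436), where PRKCA fell by 0.68 ± 0.17 (adjusted p = 0.0268). Neither Kasumi-1 call held without vehicle replicate 2. The OCI-M1 call of CD44 was lost without treated replicate 1 (-0.36) or vehicle replicate 3 (-0.44), and with the line fitted alone. CR2, a complement receptor found in complexes with CD81, rose by 1.17 ± 0.18 in OCI-M1 (adjusted p = 0.000155), a call lost when the line was fitted alone.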

How the data were processed

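Total RNA of 7 acute myeloid leukemia cell lines was hybridised to Affymetrix PrimeView arrays. The deposited values are log2 intensities, for which the submitters' processing notes name RMA and affy; versions, and whether all arrays were normalized together, are not given in the sources used here. They were used as deposited. Of 49395 probe sets, 44988 named 1 symbol in the platform annotation, 1832 several and 2473 none, and 102 were controls. Those naming 1 symbol gave 18132 genes, read from the brightest probe set on average. The number of arrays, 39, limits the precision.

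All arrays entered 1 linear model with 14 group means (R 4.3.3, limma 3.58.1 with lmFit, then eBayes, 25 residual degrees of freedom), with Benjamini-Hochberg adjustment over all genes of a contrast; values of further probe sets come from the same model over all probe sets. Errors are its standard errors. In data simulated from these arrays, 100 genes were changed by 1 log2 unit and 100 by 0.5 in each line. Of these, 92% to 95% of the larger and 36% to 54% of the smaller changes were recovered. Between 2.61% and 6.62% of the calls were false. The highest correlation of 2 arrays of a group was 0.9972. Replicate numbers are shared between arms. Deviations of same-numbered arrays correlated at 0.118 to 0.371 in OCI-M1, the only line with every pair above 0.1. The range was 0.1 to 0.67 in MV-4-11, 0.01 to 0.572 in NOMO-1 and -0.043 to 0.461 in OCI-AML3. It was -0.173 to 0.117 in Kasumi-1, -0.072 to 0.012 in KG-1a and -0.045 to -0.042 in Sig-M5. Any pairing thus comes from the data and not the labels, and the main model leaves it out. Data handling used pandas 2.3.3, and plots were drawn with matplotlib 3.10.9 in Python 3.11.15.

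The members and lists were chosen with earlier results of these data known. Named genes are the members, up to 3 called genes a line and list with arrays apart, the other tetraspanins with the 5 highest vehicle levels, the genes most like each member, CD38, ITGAM and RARA; genes named outside this rule (ADAM10, RAB27A, TSPAN10, TSPAN15, and further calls of named genes) were chosen after their values were seen. Of the partner list, 41 of 44 genes are reported here. Alternatives were the mean of a gene's probe sets, a filter on dim genes, quantile normalization, the actin difference as covariate, array weights, a trended robust prior, the replicate block, each line alone and each array left out. Chosen after seeing the data were the other CD53 probe set, the widest-ranging CD9 probe set and leaving out the 2 most degraded arrays. RefSeq supplied promoter sequences (GRCh38.p14).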

Additional observations from a re-analysis of the deposited data

Results flagged for a closer look

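CD53 moved in opposite directions in different lines, with every treated array above every vehicle array in Sig-M5 (1.40) and every treated array below in KG-1a (-1.66). CD63 did the same in Sig-M5 (0.49) and MV-4-11 (-0.43). The difference between lines was not tested for either gene, since the genes were chosen with these drug differences in view. No group holds 4 or more arrays, so no array was examined as an outlier of its group.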

How the results depend on the processing

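No called difference of a member turned sign, nor did one of the up to 3 genes named per line and list. Of the other called list genes, AP3D1 in Sig-M5 went from -0.54 to 0.01 with the actin covariate. CD53 kept its calls in KG-1a, OCI-AML3 and Sig-M5 under every alternative run. CD53 in Kasumi-1 was 0.44 with the mean of its probe sets, 0.71 on its other probe set, 0.03 without the 2 most degraded arrays and 0.03 to 0.32 with 1 array left out. In Sig-M5 these were 2.05, 2.71, 1.22 and 1.22 to 1.57, and 1.20 with the actin covariate. CD53 ran with 1 array left out from 0.67 to 0.82 in NOMO-1, 0.70 to 0.81 in MV-4-11, -1.70 to -1.62 in KG-1a, 1.0 to 1.08 in OCI-AML3 and 0.42 to 0.55 in OCI-M1.

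Of the 7 tetraspanins, 4 were called in MV-4-11 and 0 in OCI-M1 with the mean of probe sets, 3 in KG-1a and 5 in OCI-AML3 with array weights, 0 in OCI-M1 when each line was fitted alone, and, with the other CD53 probe set, 1 in MV-4-11 and 0 in both NOMO-1 and OCI-M1. CD151 vehicle levels differed in 11 pairs of lines with the mean of probe sets and in 6 to 12 with 1 array left out.

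Of the other tetraspanins, 3 were called in OCI-AML3 and 2 in OCI-M1 with the mean of probe sets. Without dim genes the counts were 1 in Kasumi-1, 1 in NOMO-1 and 0 in OCI-M1, with the actin covariate 2 in Sig-M5, and with array weights 4 in MV-4-11, 6 in KG-1a and 11 in OCI-AML3. Each line alone gave 1 in NOMO-1, 1 in MV-4-11 and 0 in OCI-M1. With 1 array left out they ran from 0 to 1 in Kasumi-1, 1 to 3 in NOMO-1 and also in MV-4-11, 3 to 8 in OCI-AML3 and 3 to 7 in Sig-M5.

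Of the partners, 0 were called in Kasumi-1 with the mean of probe sets, with the actin covariate, with array weights, with each line alone and without the 2 most degraded arrays, 1 with quantile normalization and 4 without dim genes. OCI-M1 had 2 without dim genes and 1 alone. Sig-M5 had 11 with the actin covariate and 12 without the degraded arrays, and array weights gave 14 in MV-4-11, 9 in KG-1a and 17 in OCI-AML3. With 1 array left out the counts ran from 0 to 5 in Kasumi-1, 1 to 5 in KG-1a, 1 to 4 in OCI-M1 and 12 to 20 in Sig-M5.

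With the replicate block, 2 other tetraspanins and 6 partners were called in Kasumi-1, and the OCI-M1 counts stayed 1, 1 and 4. In no line do the labels say what a shared replicate number means. The trended robust prior moved no count by over 1.5 times. The filter on dim genes leaves out CD9. Leaving out an array in Kasumi-1, KG-1a or Sig-M5 can leave 1 vehicle array, which is then assumed to vary like the other groups. The causes of these changes were not tested. Simulated recovery of changes of 0.5 log2 was 36% to 54%, so smaller differences of members may go uncalled. The simulation changed far fewer genes than the 4874 called in Sig-M5 and 2150 in OCI-AML3. The adjusted p depends on that number, so recovery in those lines may differ.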
